A study of Daphnia magna with 3 samples.

Results

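Eggs of the water flea Daphnia magna were compared with hemocytes, the cells that circulate in its hemolymph. The comparison takes the 3 egg libraries and the 3 hemocyte libraries, 6 of the 21 libraries of an atlas of 7 body parts, chosen by the body part that their barcode marks. Both body parts came from animals of genotype IL-M1-8, kept at 20 °C in ADaM medium with 20 mL per adult and fed green algae each day at 100000 cells per mL. Each of the pools, numbered 3, 4 and 7, holds 1 egg library and 1 hemocyte library, sequenced as cDNA on an Oxford Nanopore platform. The labels give neither the age of the animals nor the stage of the eggs, nor how hemocytes were drawn or how many animals went into a pool. No label ties the pools to separate cultures, so every p-value reflects the variation among these 6 libraries alone, and that may be technical.

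Hemocytes are the mobile immune cells of arthropods, known for engulfing particles, for clotting and for melanisation at wounds. Daphnia eggs develop in a brood chamber under the carapace, and an arthropod egg starts with RNA and yolk laid down by the mother before its own genome takes over. The deposited table names 33957 gene models, 1 transcript each, by identifiers that are paired with no gene name, and 0 of them matched the RefSeq gene table of Daphnia magna. Marker genes of eggs, hemocytes or other cells could therefore not be looked up, the labelled cell types could not be checked against them, and what follows describes how many genes differed, by how much, in which libraries and in which other body parts. A gene below is 1 such model, and a positive log2 fold change means a higher level in eggs. CPM is the read count of a gene relative to the reads of its library on the genes tested, scaled with TMM factors.

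The egg libraries held 175876, 159154 and 326037 reads in replicates 3, 4 and 7, and the hemocyte libraries 59943, 102216 and 270725 reads. Of the 33957 genes, 9600 had a read in eggs and in hemocytes, 2617 had one in eggs alone and 2253 in hemocytes alone. A filter on low counts left 2878 genes to test, which held 84.0% to 85.4% of the reads of each egg library and 85.1% to 85.7% of those of each hemocyte library. One hemocyte library, that of replicate 4, lay closer to eggs than the others. Across the tested genes its Spearman correlation with the 3 egg libraries was 0.45 to 0.49, against 0.29 to 0.39 for hemocytes of replicate 3 and 0.22 to 0.35 for hemocytes of replicate 7. The egg libraries correlated with each other at 0.77 to 0.85, and the hemocyte libraries at 0.55 to 0.77, with the lowest value between replicates 4 and 7. These correlations run across genes, which are not independent replicates, and describe the libraries only.

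Eggs and hemocytes differed in 586 genes, 20.4% of those tested. In eggs 207 genes were higher, which is 7.19% of the tested genes, and 379 were lower, which is 13.2% (edgeR quasi-likelihood test, adjusted p under 0.05). With TMM factors, the genes that were lower in eggs differed more steeply than those that were higher. Their median log2 fold change was -3.86 (middle 50% of genes from -4.95 to -2.32), against 2.15 (1.8 to 2.61) for the higher genes. Over all tested genes the median was 0.12. Among all tested genes, called or not, 20 were more than 3 log2 units higher in eggs and 248 more than 3 log2 units lower. At more than 5 log2 units the counts were 1 higher and 91 lower. In body parts taken as bulk samples, fewer cells of a type and less RNA per cell cannot be told apart.

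Leaving out the hemocyte library of replicate 4 gave 278 higher and 664 lower genes, among them 147 of the 207 and 372 of the 379. With the pool number as a block the counts were 111 higher and 272 lower. The higher count also moved to 70 without eggs of replicate 3, 82 without eggs of replicate 4, 87 without eggs of replicate 7 and 70 without hemocytes of replicate 3. Across the fits that each leave out 1 of the 6 libraries, 41 of the 207 and 144 of the 379 were called every time. How the calls divided between directions changed with scaling. With TMM factors 35.3% were higher in eggs, and 74.3% with library totals over the tested genes alone (756 higher, 262 lower). There the median log2 fold change of all tested genes was 0.99, against 0.12 with TMM factors. Sizes shifted too: the largest rise under TMM went from 5.37 to 6.22 log2 units and the largest fall from -9.21 to -8.535. How much steeper the lower genes were thus depends on the scaling, and their median on library totals was not computed.

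**Figure D1:**
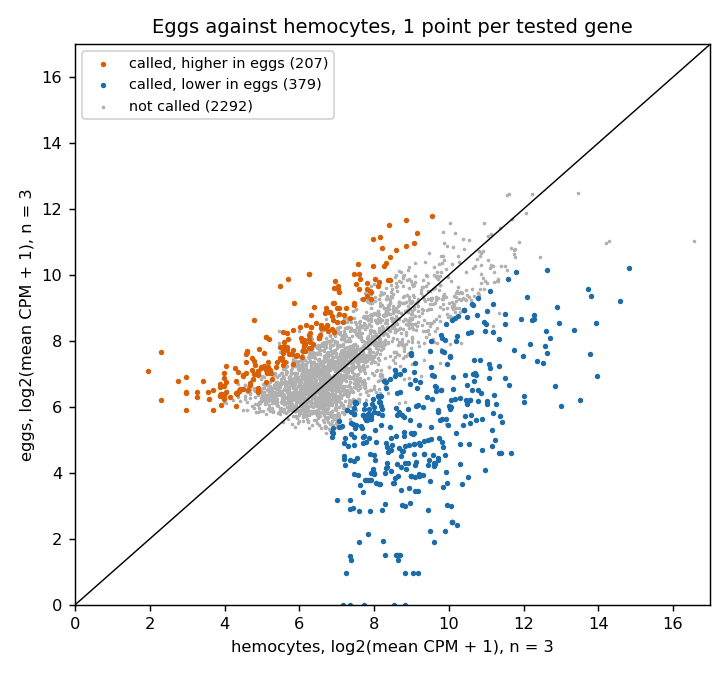
Mean level of each of the 2878 tested genes in eggs (vertical axis, log2 of mean CPM plus 1, n = 3) against hemocytes (horizontal axis, same scale, n = 3), with the line of equality. The 207 genes called higher in eggs lie in a narrow band above the line, and the 379 called lower spread far below it, 5 of them with 0 reads in eggs.

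Overlap between the groups is described here for the called genes, although the same libraries made the calls and largely fix it. The 3 egg values lay above the 3 hemocyte values in the 207 higher genes and below them in 360 of the 379 lower genes. Over all tested genes, eggs lay above without overlap in 638 (22.2%) and below without overlap in 536 (18.6%). Within pools the median log2 difference of eggs minus hemocytes for the 207 was 2.04, 1.82 and 2.03 in replicates 3, 4 and 7. For the 379 lower genes it was -3.54, -2.06 and -3.61 in replicates 3, 4 and 7. Eggs were below in 3 of 3 pools for 369 of them, and the other 10 were above in replicate 4.

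Most called genes entered the test through the body part where they were high. The filter asked for about 59.7 CPM in at least 3 libraries, here unscaled and relative to all reads of a library. Of the 207 higher genes, 170 reached it in all 3 egg libraries but not in all 3 hemocyte libraries. For 260 of the 379 lower genes it was the other way round. Over all 2878 tested genes, 1450 reached it in all 3 egg libraries but not in all 3 hemocyte libraries, and 280 the other way round. The median called gene therefore rested on few reads in its low body part. Genes higher in eggs had a median of 173 reads over the egg libraries and 13 over the hemocyte libraries. Genes lower in eggs had a median of 36 reads over the egg libraries and 144 over the hemocyte libraries. Genes below the filter stayed outside the test even where, of the body parts compared, only eggs or only hemocytes had a read. Reads in the other body parts were not looked at for these counts. In each of the egg libraries 386 genes had a read and in hemocytes 0, with at most 55 reads over eggs. In the other direction 146 had 0 reads in eggs and a read in each of the hemocyte libraries, 5 of which had enough reads to be tested and were called.

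Called genes took up unequal parts of the RNA of the body parts. The 207 genes higher in eggs held 10.2% ± 0.577 of the reads in eggs and 1.27% ± 0.533 in hemocytes (SD, n = 3 each). The 379 genes lower in eggs held 4.62% ± 1.15 of the reads in eggs and 29.6% ± 11.7 in hemocytes (SD, n = 3 each). By library the share of these 379 was 3.29%, 5.21% and 5.35% in eggs of replicates 3, 4 and 7, and 28.9%, 18.2% and 41.6% in hemocytes. The egg and hemocyte shares did not overlap for either set, and replicate 4 had the smallest hemocyte share of the lower genes. These sums are a description of the calls, since the same libraries chose the genes.

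Egg RNA was also spread over more genes than hemocyte RNA. The 10 most counted genes of a library held 6.15% to 10.2% of the reads in eggs and 24.2% to 28.9% in hemocytes. The most counted gene alone held 0.944% to 5.71% in eggs and 8.12%, 15.8% and 9.87% in hemocytes of replicates 3, 4 and 7. In hemocytes of replicate 4 it made up most of the 24.2% held by the 10. To reach 50% of the reads took 468 to 513 genes in eggs and 89, 168 and 251 genes in hemocytes of replicates 7, 3 and 4. Read concentration did not overlap between the body parts by any of these measures, although with 3 libraries each an exact permutation test cannot fall below 0.10. Whether the number of genes seen overlapped depended on the depth compared. At a common depth of 59943 reads, 7044.8 ± 82.1 genes had a read in eggs and 6652.4 ± 706 in hemocytes (SD, n = 3 each), with 7201.0 in hemocytes of replicate 4 and 5856.3 in hemocytes of replicate 7. At 14985 reads the counts were 4136.9 ± 73.3 in eggs (4058.6 to 4203.9) and 3516.9 ± 493 in hemocytes (2979.9 to 3948.1), without overlap.

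**Figure D2:**
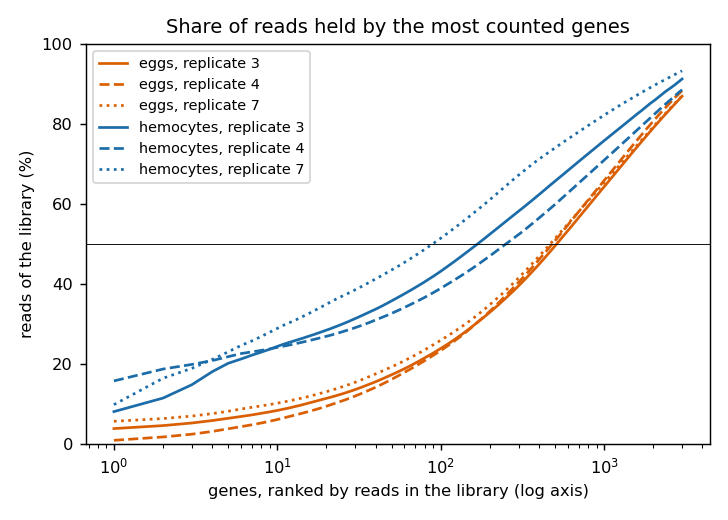
Share of the reads of a library (vertical axis, percent) held by its most counted genes, ranked within the library (horizontal axis, log scale), for the 3 egg and 3 hemocyte libraries. The egg curves run together and cross the line at 50% after 468 to 513 genes, while the hemocyte curves lie higher and apart, crossing it after 89 to 251 genes.

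Of the 50 genes with the largest mean share of reads in each body part, 17 (34.0% of each list) were on both lists. The egg list of 50 held 17.1% ± 1.79 of the reads in eggs and 23.4% ± 2.11 in hemocytes (SD, n = 3 each). The hemocyte list of 50 held 10.6% ± 2.21 of the reads in eggs and 35.9% ± 5.66 in hemocytes (SD, n = 3 each).

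Replicate spread was wider in hemocytes than in eggs. The common dispersion estimated from the tested genes was 0.0995 in eggs alone and 0.323 in hemocytes alone, which is a biological coefficient of variation of 31.5% in eggs and 56.8% in hemocytes. Between its highest and lowest library a gene ranged over a median of 0.67 log2 units in eggs and 1.31 in hemocytes. The range was wider in hemocytes for 2194 of the 2878 genes. These ranges include counting noise, which is larger at fewer reads. The median tested gene had 96 reads over the egg libraries and 32 over the hemocyte libraries, and the part played by depth was not tested. The 6-library model uses 1 spread for both body parts, so it overstates the spread of eggs and understates that of hemocytes.

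The genes named by identifier are the 2 with the largest log2 fold change in each direction among called genes with at least 100 reads and no overlap between the groups. The largest rise in eggs was in maker-falcon_000013F-augustus-gene-15.54-mRNA-2, a model of 2710 bases. Its level was 185, 107 and 309 CPM in eggs of replicates 3, 4 and 7, against 0.0, 11.8 and 0.0 CPM in hemocytes. Each egg library lay above each hemocyte library, and hemocytes had 1 read of it in all, in replicate 4 (log2 fold change 5.37 ± 0.93 SE, adjusted p = 0.00457). By reads alone, 169 in eggs and 1 in hemocytes, the ratio of eggs over hemocytes was 111 on library totals before TMM scaling, with an exact 95% counting interval of 19.6 to 4400, and the ratio of the TMM-scaled means was 50.9. Without hemocytes of replicate 4, which held that read, the log2 fold change was 8.20 and depended on the prior count.

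The next largest rise was in augustus_masked-falcon_000012F-processed-gene-2.44-mRNA-1, a model of 3687 bases. Its level was 94.6, 160 and 146 CPM in eggs of replicates 3, 4 and 7, against 0.0, 0.0 and 8.67 CPM in hemocytes. Eggs were above in every pool, with 102 reads in eggs and 1 read in hemocytes, in replicate 7 (log2 fold change 4.80 ± 0.80 SE, adjusted p = 0.00404). The read ratio on library totals was 66.8, with an exact 95% counting interval of 11.7 to 2660, and the ratio of the TMM-scaled means was 46.2. Without hemocytes of replicate 7, which held that read, the log2 fold change was 7.58 and depended on the prior count. On a scale set over all 21 libraries the first gene averaged 135 CPM in eggs and 29.6 CPM in carcass, and the second 90.0 CPM in eggs and 15.4 CPM in carcass. In the gut, the next highest part for the first gene by its mean of 33.5 CPM, all of the signal was 4 reads for the first gene and 1 for the second, in replicate 7.

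The largest fall was in maker-falcon_000023F-augustus-gene-16.62-mRNA-1, a model of 770 bases with 0 reads among the 661067 egg reads. Its level in hemocytes was 628, 106 and 616 CPM in replicates 3, 4 and 7, from 106 reads. Against a floor of 3 reads over the egg libraries, the gene was at least 54.0-fold lower in eggs on library totals and at least 110.0-fold lower on TMM-scaled totals (adjusted p = 0.00313), bounds that cover counting error only. By mean level hemocytes were not where it was highest: on the 21-library scale it averaged 320 CPM in hemocytes and 1820 CPM in head. By library, head was at 177, 3600 and 1680 CPM in replicates 3, 4 and 7, against 450, 73.2 and 438 CPM in hemocytes. Hemocytes were thus above head in replicate 3. The largest head value came from replicate 4, whose TMM factor of 0.251 was the lowest of the 21.

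The next largest fall was in maker-falcon_000050F-augustus-gene-4.35-mRNA-1, a model of 1268 bases. Its level was 0.0, 0.0 and 2.81 CPM in eggs of replicates 3, 4 and 7, against 266, 82.5 and 1400 CPM in hemocytes. All hemocyte libraries lay above all egg libraries, but the hemocyte values spread widely and replicate 7 held 161 of the 179 hemocyte reads (log2 fold change -8.20 ± 1.31 SE, adjusted p = 0.0036). The read ratio of eggs over hemocytes was 0.00366 on library totals, with an exact 95% counting interval of 9.21e-05 to 0.0206, and the ratio of the TMM-scaled means was 0.00161. On the 21-library scale its mean was 413 CPM in hemocytes and 331 CPM in carcass, but that order rested on replicate 7. By library it was at 190, 56.9 and 992 CPM in hemocytes of replicates 3, 4 and 7, against 408, 244 and 342 CPM in carcass, so carcass was above in replicates 3 and 4. Without hemocytes of replicate 7 the log2 fold change of eggs over hemocytes was -6.31.

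Each of the 4 named calls was lost when pool 3 was left out, a fit in which edgeR called no gene, with log2 fold changes of 5.23, 4.82, -9.06 and -8.23 in the order given above (edgeR adjusted p = 0.0667 to 0.0719). They held in every other alternative that tested the gene. Over the alternatives the log2 fold change ran from 4.03 to 8.52 for the first, from 3.39 to 7.58 for the second, from -9.87 to -7.43 for the third, whose fitted values depend on the prior count because eggs had 0 reads, and from -9.19 to -6.31 for the fourth. The highest adjusted p over the alternatives was 0.0719 for the first and 0.0667 for each of the others, and the lowest was 5.63e-08, 3.73e-06, 7.97e-16 and 7.97e-16.

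**Figure D3:**
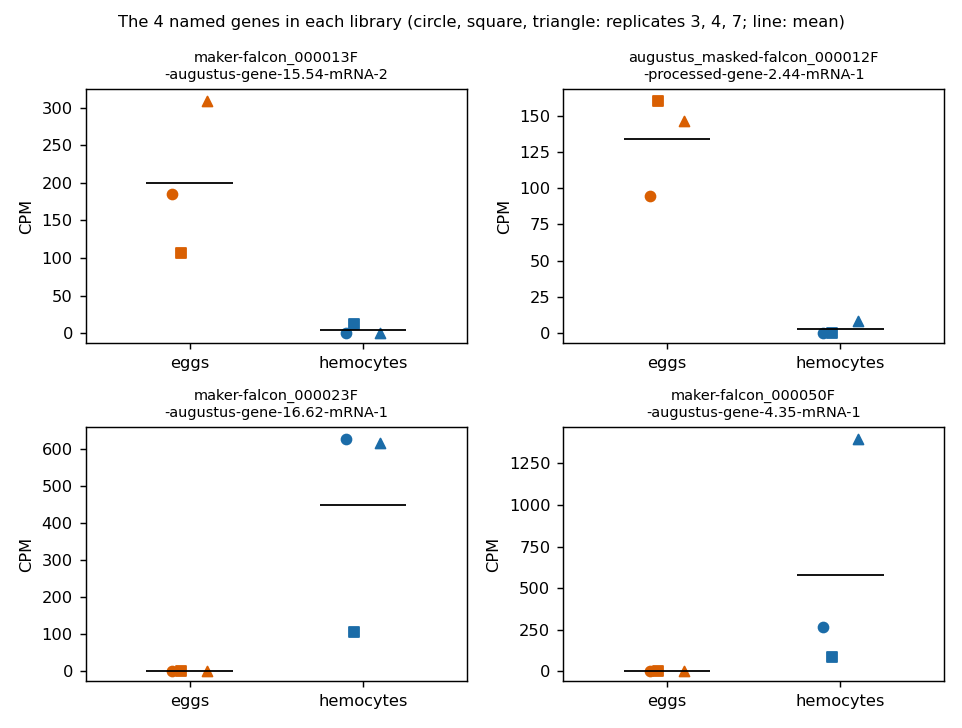
CPM of the 4 named genes in each library (vertical axis, own scale per panel), eggs left and hemocytes right, with circles, squares and triangles for replicates 3, 4 and 7 and a line at the mean (n = 3). In the upper panels hemocytes are at or near 0, in the lower panels eggs are, and hemocytes of replicate 4 are the lowest of the hemocyte libraries in both lower panels.

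Beyond the named genes, the 20 largest differences in each direction under the same rule ran from 5.37 to 2.83 log2 units for higher genes and from -9.21 to -6.97 for lower ones. The 20 higher genes all had their highest mean level in eggs among the 7 body parts, against 33.1% of all tested genes. Choosing them by high egg values favours that rank. Of the 20 lower genes, 4 were highest by mean level in hemocytes, 10 in antenna, 4 in carcass, 1 in head and 1 in gut. Over all tested genes these shares were 7.75% in hemocytes, 16.4% in antenna, 9.76% in carcass, 9.49% in head and 6.78% in gut. The fitted values of genes with no egg read depend on the prior count: 5 called genes had 0 reads in eggs, with bounds of at least 19.3-fold to at least 54.0-fold lower on library totals (39.6-fold to 110.0-fold on TMM-scaled totals), and the median of the lower genes with these 5 at their bounds on library totals was -3.86.

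Some of these genes cannot be told apart by their reads. Models were taken as near-identical when their log2 read counts correlated at 0.99 or more over the 21 libraries and their totals were within 95% of each other. Among the 207 higher genes 21 had such a partner in the set, 15 of them on another contig, and the 207 formed 195 distinct profiles. Among the 379 lower genes 36 had one, 14 on another contig, and they formed 358 distinct profiles. Over all tested genes 185 (6.43%) had a partner. Among the 20 largest differences in each direction, 4 higher and 5 lower genes had a partner within their 20. The 20 higher genes thus formed 18 distinct profiles and the 20 lower genes 17, so the body parts counted for them are not those of 20 separate genes. How the authors assigned reads that match several models is not given in the sources used here, so such genes may hold the same reads and are reported as uncertain, and none of the 4 named genes had such a partner.

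Hemocytes of replicate 4 were set apart by leaving the library out of the calls and then asking where it lay. For the 664 genes called lower in eggs from the other 5 libraries, hemocytes of replicate 4 were closer to the mean of the other hemocytes than to the mean of the eggs in 317 genes (47.7%), and in 87 (13.1%) they lay within the range of the eggs. For the 278 genes called higher in eggs, the library was closer to the other hemocytes in 141 (50.7%) and within the egg range in 39 (14%). Over all 3486 genes tested in that fit it was closer to the other hemocytes in 46.3% and within the egg range in 908 (26%). The called genes thus lay within the egg range less often than tested genes as a whole.

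The other hemocyte libraries lay nearer their own kind. With hemocytes of replicate 3 left out, that library was closer to the other hemocytes in 287 of 304 genes called lower in eggs (94.4%) and in 56 of 70 called higher (80%), against 66.9% of all genes tested in that fit. With hemocytes of replicate 7 left out the counts were 317 of 348 (91.1%) and 102 of 149 (68.5%), against 61% of all genes tested. Each egg library, when left out, was closer to the other eggs in 96.5% to 99.6% of the genes called lower and in 94.3% to 100% of those called higher, against 69.4% to 82.4% of all genes tested. The part in these values played by depth, by how the cells were drawn or by other tissue in a library was not tested, and hemocytes of replicate 4, with 102216 reads, were the middle of the hemocyte libraries in depth.

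**Figure D4:**
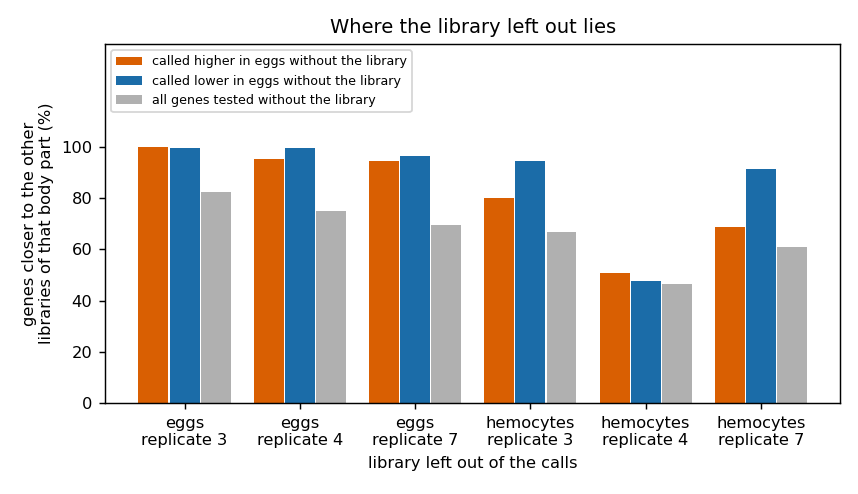
For each of the 6 libraries, the percentage of genes (vertical axis) in which the library lay closer to the mean of the other 2 libraries of its body part than to the mean of the other body part, among genes called higher in eggs, called lower in eggs or tested when that library was left out. Hemocytes of replicate 4 stand at 50.7%, 47.7% and 46.3%, against 68.5% to 100% in the called genes of the other libraries.

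Whole pools were left out in the same way. Calls made from pools 3 and 7 alone numbered 291 higher and 643 lower in eggs. In pool 4, which these calls did not use, eggs were above hemocytes in 254 of the 291 (87.3%, against 49.6% of all genes tested) and below in 554 of the 643 (86.2%, against 50.4%). The median log2 difference in pool 4 was 1.05 for the higher genes and -1.36 for the lower genes. In the pools that made the calls the fitted medians were 2.6 and -4.4, but the 2 measures are unlike. Differences of log2 CPM are damped by the prior count of 2, and the fitted values come from the pools that chose the genes. On the log2 CPM scale, too, eggs and hemocytes lay closer in replicate 4. The median level of the 643 lower genes was 5.06 log2 CPM in eggs of replicate 4, inside the 4.36 to 5.13 of the other egg libraries, and 6.67 in hemocytes of replicate 4, under the 7.83 and 8.74 of the other hemocyte libraries. For the 291 higher genes eggs of replicate 4 stood at 7.62, against 7.76 and 7.7 in the other eggs, and hemocytes of replicate 4 at 6.67, above the 5.77 and 5.4 of the other hemocytes.

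Calls made from pools 3 and 4 numbered 115 higher and 299 lower, and in pool 7 eggs were above in 107 of the 115 (93%, against 58.9% of all genes tested) and below in 283 of the 299 (94.6%, against 41.1%). The median log2 difference in pool 7 was 1.68 for the higher genes, against a fitted median of 2.59 in the pools that made the calls. For the lower genes it was -3.59, against -3.8. As for pool 4, the fitted values are an unlike measure from the pools that chose the genes. From pools 4 and 7 edgeR made 0 calls (214 higher and 442 lower at an unadjusted p under 0.05, smallest adjusted p = 0.0667), limma voom made 0 and DESeq2 made 18 higher and 326 lower. Followed into pool 3, a step added after seeing these counts, the DESeq2 calls had eggs above in 18 of the 18 (against 56.8% of all genes tested) and below in 323 of the 326 (99.1%, against 43.1%). Their median log2 difference in pool 3 was 3.09 for the higher genes, against a fitted 3.24, and -4.12 for the lower genes, against -4.49. Here too the fitted values are an unlike measure from the pools that chose the genes. The common dispersion was 0.301 in that fit, against 0.12 with pool 4 left out and 0.134 with pool 7 left out.

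In the other 5 body parts, whose 15 libraries did not enter the calls, the genes behaved unlike each other by direction. In carcass, the part outside the calls where the 207 higher genes had their highest median, it was 5.6 to 6.04 log2 CPM. For all tested genes it was 6.61 to 6.77 there. In at least 4 of the 5 other parts 186 of the 207 (89.9%, against 59.1% of all tested genes) were closer to hemocytes than to eggs by mean log2 level. Eggs had the highest mean level of the 7 body parts in 202 of them (97.6%, against 33.1% of all tested genes). Both counts are largely set by the calls, which chose genes with eggs far above hemocytes. Of the 207, 170 reached the filter in all 3 egg libraries but not in all 3 hemocyte libraries, as did 1450 of all 2878 tested genes. The median level of the 207 was 7.28 to 7.39 log2 CPM in the egg libraries and 5.53 to 5.7 in the hemocyte libraries. It was at most 6.04 in the other 15, in head of replicate 3 and carcass of replicate 7.

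The 379 genes lower in eggs were high in most of the animal and not in hemocytes alone. Hemocytes had the highest mean level in 36 of them (9.5%, against 7.75% of all tested genes), carapace in 134 (35.4%, against 16.7%) and antenna in 118 (31.1%, against 16.4%). Eggs had the lowest mean level of the 7 body parts in 341 (90.0%, against 22.3%). Their median level was 4.93 to 5.63 log2 CPM in eggs and 7.3 to 9.36 in hemocytes, beside 8.92 to 9.02 in antenna, 8.49 to 9.01 in carapace, 7.61 to 9.15 in head and 7.49 to 8.27 in carcass. Gut was uneven, with 8.17 in replicate 3 and 5.95 in replicate 7, and in replicate 4, with 4161 reads, the median gene had 0 reads. Replicate 7 of gut, with 26378 reads, was also near the floor, since 1 read there is 25.1 CPM. Its median for the genes higher in eggs was the same 5.95. Because eggs and hemocytes chose these genes, the ranks of those 2 body parts, and distances to them, are partly set by the calls. The levels in the other 5 come from libraries that neither the calls nor the filter used.

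**Figure D5:**
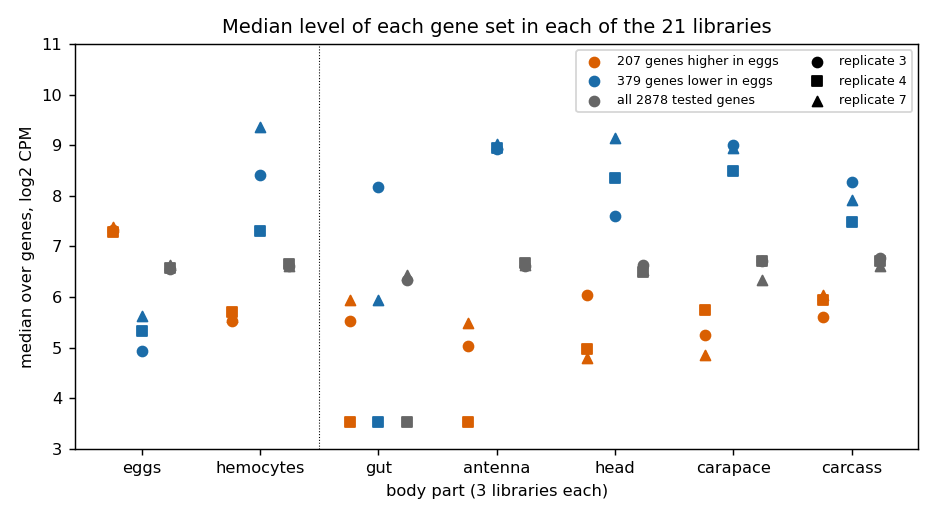
Median level over the genes higher in eggs (207), lower in eggs (379) and all tested (2878) in each of the 21 libraries (vertical axis, log2 CPM scaled over all 21 libraries, with circles, squares and triangles for replicates 3, 4 and 7). The genes higher in eggs stand above 7 in eggs alone, and those lower in eggs stand as high in antenna and carapace as in hemocytes, while points at 3.52 are libraries whose median gene had 0 reads.

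The 36 genes that were low in eggs and highest in hemocytes had their highest values mostly in replicate 7, like the 379 lower genes as a whole. They were picked by mean level, which a single high library can raise. Their median level was 5.14, 5.62 and 5.71 log2 CPM in eggs of replicates 3, 4 and 7, and 8.8, 7.4 and 10.54 in hemocytes. Among the hemocyte libraries, replicate 7 had the highest value in 31 of the 36 and replicate 4 in 5. Replicate 7 was also the highest in 291 of the 379 lower genes (76.8%), against 38.5% of all tested genes. Its TMM factor of 0.499 was the lowest of the 6 libraries, and the part this played was not tested. The second highest body part of the 36 was carapace for 14, carcass for 12, antenna for 6, head for 3 and gut for 1. The hemocyte mean was 1.23 times that part at the median gene. In 6 of the 36 it was more than 2-fold higher.

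Called genes were shorter than tested genes as a whole. The median length was 1915 bases for the 207 higher genes and 2384 for the 379 lower genes, against 2741.5 over all tested genes. Models over 3000 bases made up 34.8% of the higher and 40.4% of the lower genes, against 46.1% of all tested. The shares did not follow length in a steady order. In 6 length classes, the share called higher was 10.1% under 600 bases, 8.25% from 600 to 1000, 9.76% from 1000 to 1500, 33 of 276 models from 1500 to 2000, 5.76% from 2000 to 3000 and 5.43% above, against 7.19% of all tested genes. The share called lower was 12.9%, 14.8%, 20.4%, 10.1%, 13.4% and 11.5% in the same classes, against 13.2% of all tested genes. Averaged over reads, the gene length was 3106.7 ± 116 bases in eggs and 3236.7 ± 147 in hemocytes (SD, n = 3 each), which overlap.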

How the data were processed

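The authors deposited 1 table with raw read counts, RPKM and length for each transcript and library. A Zymo Research kit and the ONT ligation cDNA method were used, per the labels' protocols. SAMtools and DESeq2 are named in the submitters' processing notes. The aligner, like the genome build and annotation, is not given in the sources used here. The deposited RPKM was scaled to the reads of a whole pool (926451, 988239 and 2424632), so it follows library depth and entered no comparison. Lengths were used as deposited.

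The deposited counts were tested by edgeR (version 4.0.16, R version 4.3.3): filterByExpr with a minimum count of 10, TMM factors, 1 mean per body part over the 6 libraries, two-sided, Benjamini-Hochberg adjustment over 2878 genes, threshold 0.05. Head and gut libraries were unlike among themselves, so the spread came from the compared libraries, and a fit to all 21 was an alternative. Log2 CPM used a prior count of 2. Intervals and floors cover counting error only. Members, lists and the rule for named genes were chosen with earlier results of these data known. With identifiers unpaired with names, at most 2 per direction are given and the marker lists could not be applied.

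Replicate libraries differed by more than sampling noise (chi-square per degree of freedom 4.48 to 41.6 over the 6 pairs). Libraries with 1 replicate number share a barcoded pool, per the labels, and so are paired. The main fit did not model this pairing, and the fit with the pool as a block did. Deviations of same-numbered libraries from their body part means correlated at -0.123, -0.0832 and 0.237 in replicates 3, 4 and 7. Between egg and hemocyte libraries of unlike number they correlated at -0.27 to 0.341. Alternatives covered scaling, filters, DESeq2 1.42.0, limma 3.58.1, the pool as a block and libraries left out.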

Additional observations from a re-analysis of the deposited data

How the results depend on the processing

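The main counts were 207 genes higher and 379 lower in eggs. No called gene changed direction in any of the 19 alternatives that tested it, but the counts moved. Fitting all 21 libraries gave 773 lower genes, and the replicate block gave 111 higher. Library totals alone gave 756 higher, limma voom with library weights 351 higher, no filter 416 higher and 1042 lower, and a minimum count of 30 gave 168 lower from 1090 genes tested. RLE factors (167 higher, 400 lower), upper quartile factors (258, 349), DESeq2 (246, 519) and limma voom (151, 343) stayed within 1.5 times the main counts. The minimum count of 30 put 48.8% of the calls higher in eggs, and the fit to 21 libraries 19.4%. With replicates or libraries left out, the higher count ran from 0 to 291 and the lower count from 0 to 664. Both zeros came without replicate 3, where DESeq2, run after seeing this, called 18 higher and 326 lower. The cause of these moves was not tested. The block changed the call of no named gene. Called genes held 12.1% of the reads on tested genes in eggs for the higher set, against 10.2% of all reads. The smallest hemocyte library, with 59943 reads, limits the test: 1 read there is 24.1 CPM on the scale used here.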

Other observations

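The genes that differed lay on many contigs, unevenly for the lower ones. Among the 48 contigs with at least 10 tested genes, 45 held a gene lower in eggs and 43 a gene higher in eggs. The highest share of lower genes was on contig falcon_000036F, chosen after its values were seen, where 17 of 35 tested genes (48.6%) were lower in eggs and 1 was higher, against 13.2% lower over all tested genes. On falcon_000016F 30 of 105 (28.6%) were lower and 3 were higher. These counts take each model as 1 gene. Near-identical models on a contig may hold the same reads, and they were not merged. The highest share of genes higher in eggs on any of the 48 was 15.2%.

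Few genes were measured well enough to be placed as near-equal. For 43 of the 2878 tested genes (1.49%) the 95% interval of the log2 fold change lay within 1 unit of 0. Their fitted values ran from -0.1 to 0.13, their median level was 191 CPM in eggs and 188 CPM in hemocytes, and the median standard error was 0.40, against 0.52 over all tested genes.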
